A study of Mus musculus with 51 samples.

Results

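N cells, a flow-sorted population of the mouse mammary gland, were compared between animals with the estrogen receptor mutation Y541S and animals with the mutation D542G. Each group had 3 libraries, called here Y541S N 1 to 3 and D542G N 1 to 3, so that 6 of the 51 libraries of the series carried the comparison. They were chosen by their titles, and all genes of the tables were taken. Every animal of both groups carried pellets of estradiol (E2) and progesterone (P4) and was dosed by mouth with giredestrant, 30 mg per kg daily for 4 days, at 6 months of age. N is the code of the sorted population in the titles, and the other populations sorted from mutant glands after giredestrant were mature luminal (ML), luminal progenitor (LP) and basal cells, also 3 libraries per genotype. N libraries of wild type or vehicle-treated animals were not analysed here, so a difference between the mutants cannot be assigned to either of them. The labels give no surface markers of the N gate, no zygosity and no promoter or Cre for the alleles. The design text calls the libraries of a group biological replicates, but the labels do not say which libraries came from the same animal. P-values therefore measure the spread between libraries, taken within groups over N, ML, LP and basal cells of both mutants.

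Estrogen receptor alpha, the product of Esr1, is a transcription factor that estradiol switches on. In the mammary gland it is made mainly by mature luminal cells, where it drives the progesterone receptor gene and other targets, and neighbouring cells without the receptor respond to factors that the receptor-positive cells release. Tyrosine and aspartate at these neighbouring positions lie in the last helix of the ligand-binding domain, and the corresponding human substitutions are found in breast cancers that have become resistant to endocrine therapy. Giredestrant is an oral antagonist and degrader of the receptor.

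The codons named by the alleles are shown because they are the designed difference between the groups. They lie next to each other in the last coding exon of Esr1, on the plus strand at chr10:5001244-5001246 (the codon of Y541S) and chr10:5001247-5001249 (the codon of D542G) of GRCm38, within a coding sequence of 599 codons in GENCODE M21. Counts per gene do not show which allele was read. The reference sequence around them is given 5′ to 3′, with both codons in capitals.
Esr1 at the codons of Y541S and D542G: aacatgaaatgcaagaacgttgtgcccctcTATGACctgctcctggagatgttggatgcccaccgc

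The 6 libraries held 53600765, 46412939 and 46055901 counts in Y541S N and 29822960, 30916967 and 29288963 counts in D542G N, with 19531 to 20971 genes detected per library. Depth therefore did not overlap between the genotypes. The first principal component (46.2% of the variance) separated the genotypes, and the second (16.7%) set Y541S N 3 apart from the other 5 libraries. Luminal and epithelial markers were present in every library. Summed levels of 11 mature luminal markers were 4453, 4495 and 6712 CPM (counts divided by the TMM-scaled library size and expressed per a fixed total) in Y541S N and 4790, 5317 and 5319 CPM in D542G N, and those of 5 epithelial markers were 5573 to 6921 CPM in Y541S N and 5587 to 5964 CPM in D542G N. Basal keratin and myoepithelial markers were present as well, so the N libraries held RNA of more than one mammary lineage; whether single cells carried both was not measured.

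Among 18247 genes tested with edgeR's quasi-likelihood test, 1665 (9.12%) differed between Y541S and D542G N cells at a Benjamini-Hochberg adjusted p under 0.05. Of these, 753 were higher in Y541S (4.13% of the genes tested) and 912 were lower (5% of the genes tested). Differences of at least 1 on the log2 scale were found for 282 of the higher and 665 of the lower genes. The libraries of the 2 genotypes did not overlap for 1613 of the 1665 genes. Over all genes tested, 14.7% were higher in all Y541S libraries than in any D542G library and 15.2% were lower. The median log2 difference of all genes was 0.03.

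**Figure D1:**
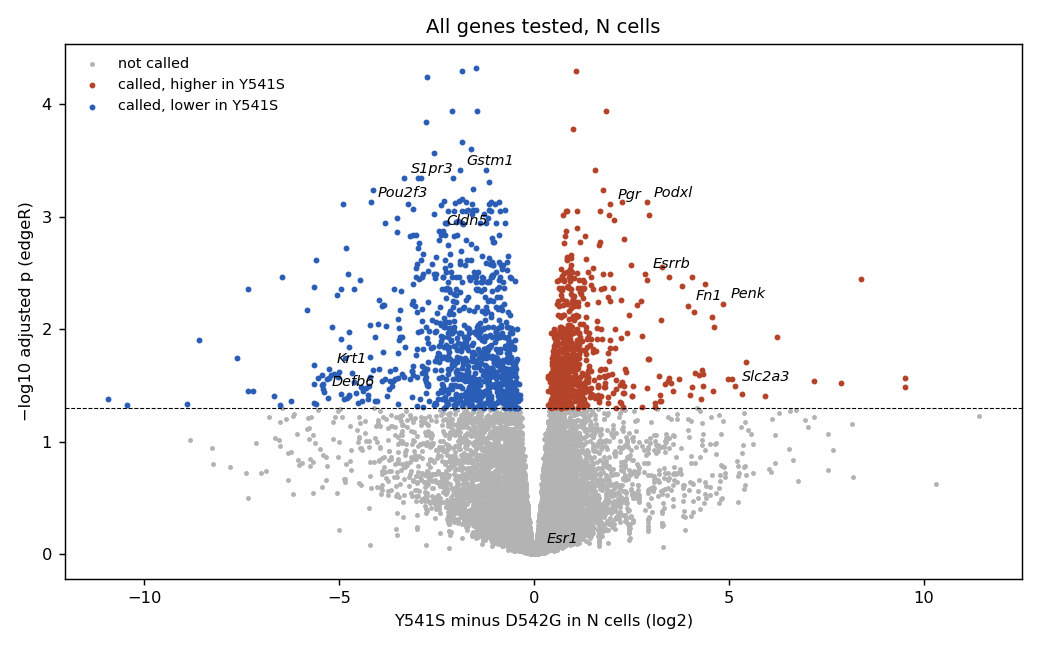
Each point is 1 of 18247 genes in N cells, with the log2 difference of Y541S minus D542G on the x axis and −log10 of the edgeR adjusted p on the y axis; the dashed line marks an adjusted p of 0.05. The 753 genes called higher in Y541S are red and the 912 called lower are blue, and the falls reach larger sizes than the rises for more genes (665 against 282 beyond 1 on the log2 scale).

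Transcript length moved with these differences among protein-coding genes. The median log2 difference by quintile of transcript length was -0.10 in the shortest quintile (84 to 1938 nt), then -0.04, 0.04 and 0.11, and 0.27 in the longest quintile (5223 to 123179 nt). Of the shortest quintile, 49 genes were called higher and 231 lower, and of the longest quintile, 355 higher and 106 lower. Transcripts over 5000 nt took 20.3, 23.2 and 20.2% of counts in Y541S N and 18.8, 18.5 and 17.8% in D542G N. The same medians in the shortest and longest quintiles were -0.27 and 0.26 in ML, -0.26 and 0.32 in LP and -0.22 and 0.27 in Basal libraries. The part of this trend in the calls was not tested beyond a fit with an offset for length. It called 662 genes higher and 901 lower and kept 1325 of the 1665 calls. With the offset the longest quintile held 165 higher and 189 lower genes, and the shortest 93 higher and 181 lower. The medians by quintile then ran from 0.02 to 0.07.

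The calls also depended on single libraries. Higher and lower calls numbered 179 and 305 without Y541S N 1, 502 and 723 without Y541S N 2, 314 and 607 without D542G N 1, and 193 and 363 without D542G N 3. Without D542G N 2 there were 328 higher genes, 37.7% of those called. A rule on size, abundance and membership in lists of genes named 103 called genes, of which 27 kept an adjusted p under 0.05 in all 15 other fits. Those 27 are Pgr, Podxl, Esrrb, Fn1, Penk, Pla2g4c and Stat5b among the rises, and Ch25h, Chit1, Cldn5, Fst, Gstm1, Ier2, Ier3, Il6, Kcnj8, Krt10, Krt5, Ltf, Ndufa4l2, Olr1, Pkib, Pou2f3, Reg3g, Rflna, Rgs5 and S1pr3 among the falls. For the others of the 103, the libraries whose omission raised the adjusted p above 0.05 are named with the gene, as are losses with length offsets. The fit of the 6 N libraries alone lost 23 calls. Its lost rises were Cyp24a1, Dhcr7, Greb1, Hsp90b1, Notch1, Pcp4, Ptpn5, Spink2, Spock1, Stat5a, Tgfb3, Tmem132b and Zbtb16. Its lost falls were Defb6, Des, Dsc1, Gpx4, H2-Aa, Hbegf, Ly6d, Nqo1, Scel and Snai1. Losses with all 51 libraries (5), no low-count filter (4), a block for replicate number (3) or thinning to equal totals (2) are not named with the gene.

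Esr1 itself did not pass the test. Its level was 225, 397 and 257 CPM in Y541S N cells, against 279, 284 and 239.5 CPM in D542G N cells. The 3 D542G values lay within the range of the Y541S values (log2 difference 0.13 ± 0.38, adjusted p = 0.876).

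Pgr, the progesterone receptor gene and the best known target of the estrogen receptor in this tissue, rose in Y541S N cells. Its level was 174, 153 and 115 CPM in Y541S N cells, against 32.6, 44.7 and 37.4 CPM in D542G N cells. All Y541S libraries lay above all D542G libraries (log2 difference 1.95 ± 0.29, adjusted p = 0.000776). The gene spans chr9:8899833-8968611 of GRCm38. Of 25 tested estrogen receptor targets, 5 rose and 2 fell (28%, against 9.12% of all genes), with a median log2 difference of 0.43 against 0.03 for all genes.

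The other rises on that list were uneven between Y541S libraries. Greb1, an estrogen-induced cofactor of the receptor, had 189, 90.2 and 13.4 CPM in Y541S N cells, against 12.6, 13.6 and 12.5 CPM in D542G N cells. Y541S N 3 lay inside the D542G range, and the other 2 Y541S libraries lay far above it (log2 difference 2.92 ± 0.73, adjusted p = 0.0182). Ptpn5, a tyrosine phosphatase, had 71.2, 32 and 2.6 CPM in Y541S and 1.57, 1.27 and 3.22 CPM in D542G, with Y541S N 3 inside the D542G range (log2 difference 4.12 ± 1.10, adjusted p = 0.0246). Irs1, an adaptor of the insulin and insulin-like growth factor receptors, had 18.2, 13.2 and 6.48 CPM in Y541S and 3.39, 3.07 and 3.67 CPM in D542G, without overlap (log2 difference 1.91 ± 0.47, adjusted p = 0.0161). Ncoa3, a coactivator of nuclear receptors, was also higher (log2 0.73, adjusted p = 0.019). Cxcl12, a chemokine, fell (log2 difference -2.39 ± 0.55, adjusted p = 0.0116), as did Rara, a retinoic acid receptor (log2 -0.47, adjusted p = 0.0224). For Greb1, Ptpn5 and Irs1 the call ended without Y541S N 1 or any 1 of the D542G libraries, for Ncoa3 without Y541S N 1 or D542G N 2 or 3 or with length offsets and for Cxcl12 without Y541S N 1 or D542G N 3 (adjusted p up to 0.136 over all other fits). With 1 library left out, the list held 1 rise and no fall without Y541S N 1 or D542G N 3, 2 rises and 2 falls without D542G N 1, 5 rises and 1 fall without Y541S N 2, and 1 rise and 2 falls without D542G N 2. The median of the list was 0.26 without Y541S N 3 and 0.22 with length offsets.

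Several well known targets did not pass. Areg, the growth factor amphiregulin through which the receptor acts on ductal growth, had 1069, 1270.0 and 1261 CPM in Y541S and 813, 944 and 668 CPM in D542G, without overlap but within the error of the fit (log2 difference 0.58 ± 0.47, adjusted p = 0.49). Stc2, a secreted glycoprotein, had a log2 difference of 1.42 ± 0.49 (adjusted p = 0.0783). Myb, Xbp1 and Myc had log2 differences of 0.07, 0.08 and 0.11, and Foxa1, a factor that opens chromatin for the receptor, one of -0.56 ± 0.47.

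Among 11 steroid receptors and their cofactors, 3 rose and none fell (27.3%). These were Pgr, Ncoa3 and Ncoa2, another coactivator, which had 84, 93.2 and 65.3 CPM in Y541S and 48.7, 50.3 and 41.8 CPM in D542G, without overlap (log2 difference 0.79 ± 0.23, adjusted p = 0.0335). Nr3c1 (glucocorticoid receptor) and Nr3c2 (mineralocorticoid receptor) had log2 differences of -0.05 ± 0.21 and -0.71 ± 0.35 and did not pass. For Ncoa2 the call ended without Y541S N 1 or 2 or any 1 of the D542G libraries or with length offsets (adjusted p up to 0.136 over all other fits). The 3 rises were 1 without Y541S N 1, D542G N 2 or D542G N 3 and with length offsets (Pgr), and 2 without Y541S N 2 or D542G N 1. Esrrb, an orphan receptor related to the estrogen receptor and not on this list, rose with 59.9, 34.2 and 26.8 CPM in Y541S N cells, against 4.55, 6.99 and 5.26 CPM in D542G N cells. It was named among the 14 largest rises, for which no overlap of libraries was required (log2 difference 2.85 ± 0.53, adjusted p = 0.0032).

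Of 12 progesterone receptor targets, 1 rose (8.33%, near the 9.12% of all genes), with a median of 0.85 that was 0.30 without Y541S N 1. There was no rise without Y541S N 1, Y541S N 2, D542G N 2 or D542G N 3, and there were 3 without Y541S N 3 and 4 with DESeq2. This was Zbtb16, a zinc finger repressor that progestins and glucocorticoids induce, with 135, 121 and 40.2 CPM in Y541S N cells, against 45.6, 36.2 and 19.4 CPM in D542G N cells. Y541S N 3 lay below D542G N 1 (log2 difference 1.55 ± 0.43, adjusted p = 0.0284). Tnfsf11 (RANK ligand) and Wnt4, through which receptor-positive cells act on their neighbours, had log2 differences of 1.03 ± 0.61 and 0.43 ± 0.33 and did not pass. Fkbp5, a chaperone induced by glucocorticoids and progestins, had 1.79 ± 0.59 (adjusted p = 0.0624). For Zbtb16 the call ended without Y541S N 1 or 2 or D542G N 2 or 3 (adjusted p up to 0.15 over all other fits).

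The prolactin signalling chain rose at its kinase and transcription factors. Of its 10 genes, 3 rose and 2 fell (50%), with a median of 0.88 that was 0.56 without Y541S N 1. Stat5b, a transcription factor activated by prolactin and growth hormone, had 241, 182 and 129 CPM in Y541S N cells, against 74.9, 94.9 and 88.5 CPM in D542G N cells, without overlap (log2 difference 1.10 ± 0.20, adjusted p = 0.00316). Its neighbour and paralog Stat5a had 629, 306 and 211 CPM in Y541S and 143, 159.9 and 161 CPM in D542G (log2 difference 1.31 ± 0.38, adjusted p = 0.0355), and Jak2, the kinase bound to the prolactin receptor, had 457, 413 and 185 CPM in Y541S and 155, 129.6 and 135 CPM in D542G (log2 difference 1.33 ± 0.33, adjusted p = 0.0165). Neither overlapped between genotypes. The feedback inhibitors Socs3 (log2 -0.99, adjusted p = 0.0149) and Cish (log2 -0.48, adjusted p = 0.0293) were lower, and Prlr, the receptor, did not pass (log2 1.04, adjusted p = 0.142). For Jak2 the call ended without Y541S N 1 or 2 or D542G N 2 or 3, for Stat5a without Y541S N 1 or any 1 of the D542G libraries and for Socs3 without Y541S N 1 or D542G N 3 (adjusted p up to 0.296 over all other fits). Rises and falls numbered 1 and 0 without Y541S N 1 or D542G N 3, 2 and 2 without Y541S N 2, 3 and 1 without Y541S N 3, 2 and 1 without D542G N 1, and 1 and 1 without D542G N 2.

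**Figure D2:**
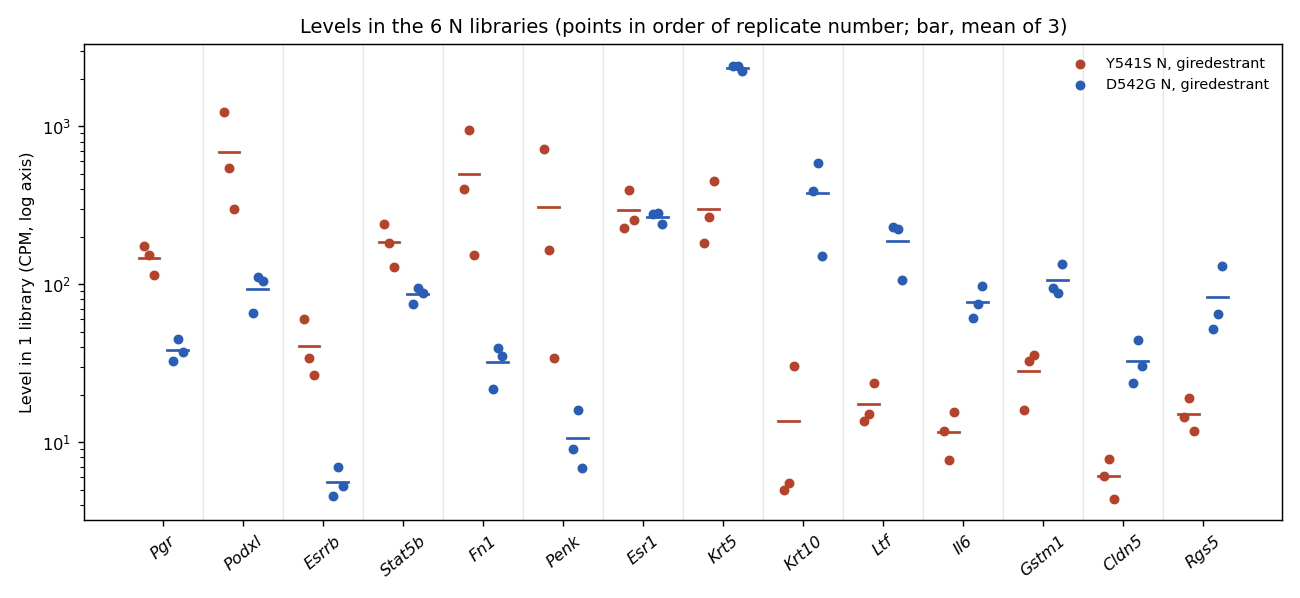
Levels of 14 genes in each of the 6 N libraries in CPM on a log axis, Y541S in red and D542G in blue; points run in order of replicate number and bars are means of 3 libraries. The genotypes overlap for Esr1 and for none of the other 13 genes, and the Y541S libraries are spread most widely for Penk (34.1 to 719 CPM) and Fn1 (153 to 946 CPM).

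The 14 largest rises among genes with at least 10 CPM and no overlap included a neuropeptide precursor, a sialomucin and a matrix protein. Penk, the precursor of enkephalin peptides, had 719, 165 and 34.1 CPM in Y541S N cells, against 9.06, 16 and 6.85 CPM in D542G N cells (log2 difference 4.85 ± 1.0, adjusted p = 0.00591). Podxl, the sialomucin podocalyxin, had 1228, 544 and 299 CPM in Y541S N cells, against 65.4, 111 and 104 CPM in D542G N cells (log2 difference 2.89 ± 0.42, adjusted p = 0.000745). Fn1, the matrix protein fibronectin, had 398, 946 and 153 CPM in Y541S N cells, against 21.7, 39.4 and 35.2 CPM in D542G N cells (log2 difference 3.95 ± 0.82, adjusted p = 0.00618). That the lowest Y541S library lay above the highest D542G library for all 3 was a condition of their choice. Pla2g4c, a cytosolic phospholipase chosen under the same condition, had 46.5, 67.8 and 25.7 CPM in Y541S and 6.65, 7.87 and 4.36 CPM in D542G (log2 difference 2.89 ± 0.55, adjusted p = 0.00363). Podxl spans chr6:31519488-31563981 and Fn1 spans chr1:71585520-71653200.

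The other rises among the 14 were led by Y541S N 1, which was the highest library for each of them. Slc2a3, a glucose transporter, had 546, 56.8 and 14.2 CPM in Y541S N cells, against 5.0, 6.04 and 6.26 CPM in D542G N cells (log2 difference 5.16 ± 1.46, adjusted p = 0.0318). Tmprss6, a membrane serine protease, had 569, 274 and 73.2 CPM in Y541S and 21.3, 38.3 and 40.2 CPM in D542G (log2 difference 3.20 ± 0.86, adjusted p = 0.0257), and Plac8 had 385, 54.3 and 98.1 CPM in Y541S and 15.1, 23.9 and 30.4 CPM in D542G (log2 difference 2.96 ± 0.74, adjusted p = 0.0183). Atp7b, a copper-transporting ATPase, had 127, 34.9 and 25 CPM in Y541S and 2.83, 8.49 and 5.78 CPM in D542G (log2 difference 3.46 ± 0.94, adjusted p = 0.027). Spink2, a protease inhibitor, reached 79.7 CPM in Y541S N 1 and 1.92 CPM in Y541S N 3, against 1.56 CPM at most in D542G N (log2 4.62, adjusted p = 0.00952). Tmem132b (log2 4.98, adjusted p = 0.0275), Frmd5 (log2 4.04, adjusted p = 0.0328), Pcp4 (log2 2.90, adjusted p = 0.0332) and Sftpd, surfactant protein D (log2 2.55, adjusted p = 0.0319), made up the remainder with Esrrb. For Slc2a3, Tmprss6, Plac8, Atp7b, Tmem132b, Pcp4 and Sftpd the call ended without Y541S N 1 or any 1 of the D542G libraries, for Spink2 without Y541S N 1 and for Frmd5 without Y541S N 1 or 2 or any 1 of the D542G libraries (adjusted p up to 0.343 over all other fits).

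Keratins and other keratinocyte genes were among the largest falls. Krt10, a keratin of differentiating epidermis, had 4.94, 5.49 and 30.4 CPM in Y541S N cells, against 388, 586 and 152 CPM in D542G N cells (log2 difference -4.77 ± 0.89, adjusted p = 0.00322). Its partner Krt1 had 1.29, 1.49 and 18.9 CPM in Y541S N cells, against 401, 329 and 112 CPM in D542G N cells (log2 difference -5.25 ± 1.37, adjusted p = 0.0223). In both, Y541S N 3 was the highest of its group and still below every D542G library, which the choice of the largest falls required. Of 19 desmosome and cornified envelope genes, 7 fell and none rose (36.8%), with a median of -1.08. Besides the keratins these were the desmosomal cadherins Dsc1 (log2 -4.53, adjusted p = 0.0452) and Dsc3 (log2 -2.72, adjusted p = 0.0197), the plaque protein Pkp3 (log2 -0.50, adjusted p = 0.0495), Sfn, the adaptor stratifin (log2 -1.08, adjusted p = 0.00458), and Sprr1a, a precursor of the cornified envelope (log2 -2.92, adjusted p = 0.0417). Desmosome genes used in all epithelia were among those that did not pass, with log2 differences of -0.39 for Dsp, -0.14 for Jup and -0.27 for Dsg2.

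Other keratinocyte and barrier genes stood among the 14 largest falls. Krt79, a keratin of hair canal and gland duct epithelium, had 7.37, 10.3 and 34.1 CPM in Y541S N cells, against 224, 382 and 165 CPM in D542G N cells (log2 difference -3.88 ± 0.95, adjusted p = 0.0159). Cst6, a protease inhibitor of the epidermis, had 0.996, 0.745 and 11.6 CPM in Y541S and 124, 231 and 92.1 CPM in D542G (log2 difference -5.04 ± 1.36, adjusted p = 0.0264), and Scel, sciellin of the cornified envelope, had 0.125, 0 and 3.92 CPM in Y541S and 14.1, 41.9 and 13.9 CPM in D542G (log2 difference -4.08 ± 1.24, adjusted p = 0.0431). Defb6, a defensin, had 0, 0.0677 and 3.64 CPM in Y541S and 41.5, 76 and 41.4 CPM in D542G (log2 difference -5.38 ± 1.56, adjusted p = 0.0358), and Reg3g, a secreted antibacterial lectin, had 0.083, 0.0903 and 1.96 CPM in Y541S and 13.4, 17.4 and 23.1 CPM in D542G (log2 difference -4.62 ± 0.91, adjusted p = 0.00436). None of these 5 genes overlapped between genotypes, which the choice of the largest falls required. For Krt1 the call ended without Y541S N 1 or 2 or D542G N 1, for Dsc1, Scel and Defb6 without Y541S N 1 or 2 or any 1 of the D542G libraries and for Sprr1a without any single N library. For Krt79 the call ended without Y541S N 1 or 2 and for Cst6 without Y541S N 1 or 2 or D542G N 2 or 3 (adjusted p up to 0.175 over all other fits). The list of 7 falls held 2 without Y541S N 1, 4 without Y541S N 2, and 3 without D542G N 1, D542G N 2 or D542G N 3, and 10 with DESeq2.

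The remaining large falls were of mixed function. Pou2f3, a transcription factor of epidermis and tuft cells, had 0.332, 0.655 and 0.797 CPM in Y541S N cells, against 7.66, 16.8 and 8.51 CPM in D542G N cells (log2 difference -4.19 ± 0.61, adjusted p = 0.000745). Pkib, an inhibitor of protein kinase A, had 0.208, 0.294 and 0.858 CPM in Y541S and 4.48, 25.2 and 11.9 CPM in D542G (log2 difference -4.91 ± 0.73, adjusted p = 0.000776). Chit1, a chitinase, had 0.768, 0.587 and 1.25 CPM in Y541S and 18.1, 48.8 and 15 CPM in D542G (log2 difference -4.96 ± 0.98, adjusted p = 0.00439), and Olr1, a receptor for oxidised lipoprotein, had 0.975, 5.28 and 2.41 CPM in Y541S and 63.8, 34.4 and 93.3 CPM in D542G (log2 difference -4.47 ± 0.86, adjusted p = 0.00367). None of these 4 genes overlapped between genotypes, again a condition of their choice. Rflna (log2 -4.01, adjusted p = 0.00899) and Aadac, an arylacetamide deacetylase (log2 -4.75, adjusted p = 0.0381), completed the 14. For Aadac the call ended without Y541S N 1 or 2 or any 1 of the D542G libraries (adjusted p up to 0.145 over all other fits).

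Basal keratins fell in Y541S N cells while smooth muscle genes of myoepithelium did not pass. Krt5 had 182, 268 and 450.3 CPM in Y541S N cells, against 2401, 2419.6 and 2232 CPM in D542G N cells, with the highest Y541S library far below the lowest D542G library (log2 difference -2.96 ± 0.56, adjusted p = 0.0036). Krt14, its partner keratin, had 1250.5, 3105 and 1977 CPM in Y541S N cells, against 11089.5, 8023 and 10356 CPM in D542G N cells (log2 difference -2.22 ± 0.59, adjusted p = 0.0247), and Krt17 had 509, 561 and 489 CPM in Y541S N cells, against 2216, 2292 and 1829.8 CPM in D542G N cells (log2 difference -2.02 ± 0.48, adjusted p = 0.0142). None of the 3 overlapped. Krt5 spans chr15:101707070-101712898, and the sources used here do not say how reads shared by related keratins were counted.

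Of 20 basal and myoepithelial markers, 5 fell and none rose (25%), with a median of -0.52. Procr, a receptor used to mark mammary stem cells (log2 -1.67, adjusted p = 0.0265), and Vim, vimentin (log2 -1.60, adjusted p = 0.0178), were the other 2. Acta2, smooth muscle actin, had 182, 222 and 197 CPM in Y541S and 205, 234 and 243 CPM in D542G, with overlap (log2 difference -0.18 ± 0.69, adjusted p = 0.912). Myh11, smooth muscle myosin, had 25.9, 28.3 and 24.8 CPM in Y541S and 17.7, 19.4 and 23.5 CPM in D542G, without overlap and higher in Y541S (log2 difference 0.39 ± 0.66, adjusted p = 0.779). These errors hold the spread of ML, LP and Basal libraries as well as that of N. Trp63, the basal lineage factor p63, had 376, 726 and 217 CPM in Y541S and 683, 582 and 599.8 CPM in D542G, with overlap (log2 difference -0.50 ± 0.59, adjusted p = 0.658). The summed level of 10 basal markers was 2651, 5065 and 3490 CPM in Y541S N and 16780, 13750 and 15470 CPM in D542G N, without overlap. In Basal libraries the same sum was 28540 to 33060 CPM in Y541S and 30030 to 50350 CPM in D542G. Whether fewer basal cells in the gate or lower keratin RNA per cell lay behind the lower levels cannot be told apart in bulk samples, and the same holds for every group of genes below. For Krt14 and Procr the call ended without Y541S N 1 or 3 or D542G N 1 or 3, for Krt17 without Y541S N 1 and for Vim without Y541S N 1 or 2 or D542G N 3 (adjusted p up to 0.135 over all other fits). The 5 falls were 1 without Y541S N 1, 3 without Y541S N 3 or D542G N 1, and 2 without D542G N 3.

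Of 100 genes that marked wild type Basal cells after giredestrant, taken from libraries outside the comparison, 14 fell in Y541S N cells and none rose (14%, against 9.12% of all genes called and 5% lower), with a median of -0.79. They included Fst, follistatin, the secreted antagonist of activin, with 20.1, 118 and 79.5 CPM in Y541S N cells, against 703, 322 and 572 CPM in D542G N cells, without overlap (log2 difference -2.88 ± 0.62, adjusted p = 0.00844). They also included Wnt10a, a Wnt ligand of epidermal and basal cells (log2 difference -1.75 ± 0.44, adjusted p = 0.0187), and Igfbp3, a binding protein of insulin-like growth factors (log2 difference -2.07 ± 0.45, adjusted p = 0.00846). For Wnt10a the call ended without Y541S N 1 or 3 or D542G N 1 or 3 and for Igfbp3 without Y541S N 1 (adjusted p up to 0.0601 over all other fits). The 14 falls were 4 without Y541S N 1, 9 without D542G N 3, and 22 with DESeq2 or in a fit of the 6 N libraries alone. The same rule found only 1 gene each for ML and LP, which gave no signature for them. Of the 100 Basal genes, 55 were higher in Y541S LP (7.67% of all genes were) and 1 in Y541S Basal cells (2.44% of all genes were). In Y541S ML 7 of the 100 were lower, as were 576 of all 18247 genes.

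Luminal genes held few calls. Of 12 genes of epithelial adhesion and luminal keratins none passed, against 9.12% of all genes. That list held 1 rise with DESeq2, with length offsets, in the 6 N libraries alone and without Y541S N 2. At an unadjusted p under 0.05 the share over all genes was 24.8%. Epcam, the epithelial adhesion molecule, had 1752, 1853 and 1956 CPM in Y541S and 1916, 1777 and 1896 CPM in D542G (log2 difference -0.00 ± 0.18, adjusted p = 1.0), and Krt18, a luminal keratin, had a log2 difference of 0.15 ± 0.29. Krt8, its partner, had 0.70 ± 0.24 (adjusted p = 0.0728). Of 13 mature luminal markers, Pgr rose and Ly6d, a surface antigen, fell (15.4%). Ly6d had 48.1, 178 and 519 CPM in Y541S and 996, 1078 and 1072 CPM in D542G, without overlap (log2 difference -2.06 ± 0.64, adjusted p = 0.0471).

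Among 11 luminal progenitor markers tested there were 1 rise and 1 fall (18.2%), and the median was -0.32, with -0.07 without Y541S N 1 and -0.21 without D542G N 3. Ltf, the secreted iron-binding protein lactoferrin, fell, with 13.6, 15 and 23.6 CPM in Y541S N cells, against 231, 224 and 106 CPM in D542G N cells and no overlap (log2 difference -3.42 ± 0.68, adjusted p = 0.00455). Cyp24a1, which breaks down vitamin D, rose at low levels, with 5.56, 3.66 and 1.61 CPM in Y541S and 0.84, 0.163 and 0 CPM in D542G (log2 difference 3.43 ± 0.95, adjusted p = 0.0289). Kit and Elf5, the receptor and the factor that define the lineage, had log2 differences of 0.39 ± 0.48 and 0.73 ± 0.39 and did not pass. For Ly6d the call ended without Y541S N 1 or 2 or any 1 of the D542G libraries or with length offsets and for Cyp24a1 without Y541S N 1 or 2 or D542G N 2 or 3 (adjusted p up to 0.153 over all other fits).

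Milk genes varied widely between libraries. Of 14 tested, 1 rose and 1 fell (14.3%), although the median was 1.61, with 0.89 without Y541S N 1. Csn2, beta-casein, had 2931, 764 and 7.97 CPM in Y541S N cells, against 2.59, 118 and 115 CPM in D542G N cells, so that the groups overlapped (log2 difference 3.98 ± 2.17, adjusted p = 0.269). Acly, which supplies acetyl-CoA for fatty acid synthesis, rose (log2 difference 0.79 ± 0.23, adjusted p = 0.0367), and Mfge8, a protein of the milk fat globule, fell (log2 difference -0.59 ± 0.17, adjusted p = 0.0393). For Acly the call ended without Y541S N 1 or 2 or any 1 of the D542G libraries and for Mfge8 without any single N library or with length offsets (adjusted p up to 0.154 over all other fits).

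Interleukin 6 and 3 other cytokine genes fell in Y541S N cells. Of 14 tested chemokine and acute phase genes, 4 fell and none rose (28.6%), with a median of -0.81 that was -0.35 without D542G N 1 and -0.38 without D542G N 2. Il6, the cytokine interleukin 6, had 11.7, 7.68 and 15.6 CPM in Y541S N cells, against 60.8, 74.8 and 97.1 CPM in D542G N cells (log2 difference -2.72 ± 0.50, adjusted p = 0.00306). Cxcl1 and Cxcl2, chemokines that attract neutrophils, had 81.2, 115 and 90.4 CPM in Y541S and 199.9, 275 and 231 CPM in D542G (log2 difference -1.30 ± 0.38, adjusted p = 0.0371) and 4.25, 7.36 and 10.7 CPM in Y541S and 39.9, 30.0 and 34.6 CPM in D542G (log2 difference -2.22 ± 0.55, adjusted p = 0.0172). Csf3, the granulocyte colony-stimulating factor, had 29.2, 33.5 and 54.3 CPM in Y541S and 187, 141 and 125 CPM in D542G (log2 difference -1.94 ± 0.46, adjusted p = 0.0133). None of the 4 overlapped between genotypes. Il33, an alarmin, had 226, 1180.2 and 1877 CPM in Y541S and 3589, 3015 and 3245 CPM in D542G and did not pass (log2 difference -1.57 ± 0.82, adjusted p = 0.246), and the acute phase gene Hp, haptoglobin, had 2.09 ± 0.86 (adjusted p = 0.135).

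Promoters of 3 of these genes are shown because the falls were shared and each holds a string that the factor NF-kB can bind. Csf3 had no promoter among those searched. The windows run from 250 bases before to 50 bases after the start site, from RefSeq on GRCm38.p6, and all lie on the plus strand: Cxcl1 at chr5:90890995-90891294, Cxcl2 at chr5:90903649-90903948 and Il6 at chr5:30012864-30013163. The string searched was GGANTTTCC on both strands, chosen with the falls known, and its matches are in capitals. They begin 70 bases before the start site in Cxcl1, 96 bases before it in Cxcl2 and 43 bases before it in Il6.
Cxcl1: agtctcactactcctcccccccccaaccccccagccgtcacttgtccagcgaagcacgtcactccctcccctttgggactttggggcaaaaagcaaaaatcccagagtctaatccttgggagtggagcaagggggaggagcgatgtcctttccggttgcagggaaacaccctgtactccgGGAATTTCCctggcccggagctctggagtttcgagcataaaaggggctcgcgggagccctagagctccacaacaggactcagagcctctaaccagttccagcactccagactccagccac
Cxcl2: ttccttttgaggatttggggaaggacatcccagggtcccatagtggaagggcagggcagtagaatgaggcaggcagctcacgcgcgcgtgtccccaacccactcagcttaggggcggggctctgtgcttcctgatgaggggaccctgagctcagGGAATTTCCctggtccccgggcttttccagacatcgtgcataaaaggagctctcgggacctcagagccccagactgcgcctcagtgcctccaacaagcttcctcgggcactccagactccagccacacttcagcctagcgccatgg
Il6: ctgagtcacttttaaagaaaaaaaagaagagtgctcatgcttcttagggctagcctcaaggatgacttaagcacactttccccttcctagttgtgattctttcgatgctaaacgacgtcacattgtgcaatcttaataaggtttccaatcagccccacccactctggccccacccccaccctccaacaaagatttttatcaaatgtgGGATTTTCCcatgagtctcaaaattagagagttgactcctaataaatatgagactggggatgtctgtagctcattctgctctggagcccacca

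Of the 12 genes of this list with a promoter in the table, 4 held the string (33.3%), these 3 and the chemokine gene Cxcl10, which was removed by the filter on low counts. Over all 32851 promoters in the table the share was 1.25%, and over all 27025 genes with a promoter there it was 1.45%. Among genes with a promoter there, the share was 4.72% of 657 called lower, 0.506% of 593 called higher and 1.68% of 12652 tested. Because the string was chosen with the falls known, its shares on this list and among the lower genes are not a test. A match is a description of letters, and binding was not measured. For Cxcl1 the call ended without any single N library or with length offsets, for Cxcl2 without Y541S N 1 or 2 or D542G N 3 and for Csf3 without Y541S N 1 (adjusted p up to 0.154 over all other fits). Falls on the list numbered 1 without Y541S N 1 and 2 without Y541S N 2 or D542G N 3.

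A set of immediate early genes fell as well. Of 15 immediate early and heat shock genes, 5 fell and none rose (33.3%), with a median of -0.49. Ier2, an early response factor, had 351, 363 and 387 CPM in Y541S N cells, against 669.8, 712 and 715 CPM in D542G N cells (log2 difference -0.92 ± 0.19, adjusted p = 0.0066), and Ier3, which is induced by stress and cytokines, had 634, 393 and 416 CPM in Y541S and 977, 859 and 809.6 CPM in D542G (log2 difference -0.87 ± 0.20, adjusted p = 0.0116). Dusp1, a phosphatase that limits MAP kinase signalling, had 782, 1108 and 793 CPM in Y541S and 1857, 1849 and 1539.7 CPM in D542G (log2 difference -0.96 ± 0.25, adjusted p = 0.0238), and Egr2 had 39.2, 62.5 and 53.2 CPM in Y541S and 126, 142 and 111 CPM in D542G (log2 difference -1.28 ± 0.31, adjusted p = 0.0151). None of the 4 overlapped between genotypes. Junb was also lower (log2 -0.70, adjusted p = 0.040). Fos, Fosb and the heat shock gene Hspa1b had log2 differences of -0.13, -0.03 and 1.39 and did not pass. For Dusp1 the call ended without Y541S N 1 or 3 or any 1 of the D542G libraries and for Egr2 without Y541S N 1 or D542G N 2 (adjusted p up to 0.121 over all other fits). The 5 falls were 2 without Y541S N 1 or D542G N 2 and 3 without D542G N 1 or D542G N 3.

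Glutathione genes split. Of 14 tested, 1 rose and 3 fell (28.6%), with a median of -0.12. Gstm1, a glutathione transferase with close paralogs, had 16, 32.5 and 35.5 CPM in Y541S N cells, against 94.5, 88.3 and 134 CPM in D542G N cells, without overlap (log2 difference -1.91 ± 0.25, adjusted p = 0.000385). Nqo1, a quinone reductase, had 6.5, 7.97 and 16.1 CPM in Y541S and 24.3, 20.2 and 27.7 CPM in D542G (log2 difference -1.23 ± 0.33, adjusted p = 0.0257). Gpx4, the peroxidase of membrane lipids, fell by less (log2 -0.54, adjusted p = 0.0298), and Gsr, glutathione reductase, rose (log2 0.83, adjusted p = 0.0329). For Nqo1 the call ended without Y541S N 1 or 2 or D542G N 1 or 3, for Gpx4 without Y541S N 1 or 2 or any 1 of the D542G libraries and for Gsr without Y541S N 1 or 3 or any 1 of the D542G libraries (adjusted p up to 0.126 over all other fits). The list held no rise without Y541S N 1 or any D542G library, and 1 fall without Y541S N 1, Y541S N 2, D542G N 1 or D542G N 3.

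Markers of blood vessels were lower in Y541S N libraries. Of 12 endothelial markers, 10 fell and none rose (83.3%), with a median of -1.92. Cldn5, a tight junction protein of endothelium, had 6.08, 7.77 and 4.37 CPM in Y541S N cells, against 23.7, 44.5 and 30.3 CPM in D542G N cells (log2 difference -2.43 ± 0.40, adjusted p = 0.00133). Esam, an endothelial adhesion molecule, had 14.3, 18.7 and 11.8 CPM in Y541S and 37.1, 58.5 and 110.1 CPM in D542G (log2 difference -2.19 ± 0.47, adjusted p = 0.00737), and Pecam1, a cell adhesion protein of endothelium, had 14.5, 25.6 and 21 CPM in Y541S and 48.4, 87 and 111 CPM in D542G (log2 difference -2.01 ± 0.41, adjusted p = 0.00568). None of the 3 overlapped. Sox17 (log2 -2.13, adjusted p = 0.0123) and Egfl7 (log2 -2.41, adjusted p = 0.00872) were among the largest falls of the list, whereas Vwf, von Willebrand factor, had 182, 169.6 and 62.2 CPM in Y541S and 129, 159 and 198 CPM in D542G and did not pass (log2 difference -0.23 ± 0.56, adjusted p = 0.853). For Esam the call ended without D542G N 3 and for Sox17 and Egfl7 without Y541S N 1 or D542G N 3 (adjusted p up to 0.0748 over all other fits). Of the 10 falls, 3 were called without Y541S N 1 and 2 without D542G N 3, the D542G library with the highest endothelial sum.

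The levels of these markers were low but above 0 in every library. The sum of 7 endothelial markers was 59.7, 87.1 and 56.1 CPM in Y541S N and 134, 229 and 321 CPM in D542G N, and no marker was at 0. The same sum was 89.5 to 192 CPM in Y541S LP and 58.0 to 116 CPM in D542G LP. In ML, LP and Basal libraries none of the 12 endothelial markers was called in either direction, and 7 of them were called for a difference between N and the mean of the other populations (58.3%, against 2.03% of all genes). For Esam the call of N minus the mean ended without any 1 of the Y541S libraries or D542G N 2 or 3 or with LP left out of the mean and for Cldn5 without Y541S N 1 or 3 or D542G N 2 or 3 or with LP left out of the mean (adjusted p up to 0.168 over all other fits). Cldn5 also lost that call in the fit of all 51 libraries.

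Some pericyte markers fell as the endothelial ones did. Of 8 tested, 4 fell and none rose (50%), with a median of -1.32. Log2 differences above 0 were found for 2 of the 8, and for none of the 12 endothelial markers. Rgs5, a regulator of G-protein signalling that marks pericytes, had 14.4, 19.1 and 11.7 CPM in Y541S N cells, against 52.1, 64.8 and 131 CPM in D542G N cells (log2 difference -2.45 ± 0.41, adjusted p = 0.0016), and Kcnj8, a potassium channel of pericytes, had 1.1, 2.19 and 1.7 CPM in Y541S and 6.23, 6.53 and 10.3 CPM in D542G (log2 difference -2.21 ± 0.43, adjusted p = 0.0038). Neither overlapped. Cspg4 (log2 -1.38, adjusted p = 0.0462) and Des (log2 -1.41, adjusted p = 0.040) were the other 2. For Cspg4 the call ended without any single N library and for Des without Y541S N 1 or 2 or D542G N 2 or 3 (adjusted p up to 0.21 over all other fits). The falls numbered 2 without Y541S N 1, Y541S N 2, D542G N 2 or D542G N 3.

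Lists of fibroblast, immune, fat and Schwann cell markers held 1 or 2 falls each. Of 12 fibroblast markers, Dcn, the matrix proteoglycan decorin, fell (8.33%, near the 9.12% of all genes), with 129.8, 50.9 and 149 CPM in Y541S and 773, 308 and 618 CPM in D542G and no overlap (log2 difference -2.35 ± 0.59, adjusted p = 0.0181). Of 12 tested immune markers, Cd74 (log2 -1.73, adjusted p = 0.0281) and Lyz2, a lysozyme of macrophages (log2 -2.03, adjusted p = 0.0488), fell (16.7%). Of 6 adipocyte markers, Fabp4, a fatty acid carrier of fat and endothelial cells, fell (16.7%, log2 -2.13, adjusted p = 0.00982). Of 4 Schwann cell markers, Mbp, myelin basic protein, fell (25%, log2 -0.73, adjusted p = 0.0497), and 2 had log2 differences above 0. Neither the 4 tested skeletal muscle markers nor the 2 tested erythroid markers passed.

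Summed levels of 6 fibroblast markers were 197, 187 and 207 CPM in Y541S N and 858, 447 and 1182 CPM in D542G N. Those of 8 immune markers were 12.5, 33.3 and 17.4 CPM in Y541S N and 51.8, 86.4 and 97.9 CPM in D542G N. Neither sum overlapped between genotypes, no marker in them was at 0, and their part in the results above was not tested. For Dcn the call ended without Y541S N 1 or 2 or D542G N 1 or 3, for Cd74 without Y541S N 1 or D542G N 2 or 3 and for Lyz2 without Y541S N 1 or 3 or any 1 of the D542G libraries or with length offsets. For Fabp4 the call ended without D542G N 3 and for Mbp without Y541S N 1 or 3 or any 1 of the D542G libraries (adjusted p up to 0.208 over all other fits).

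**Figure D3:**
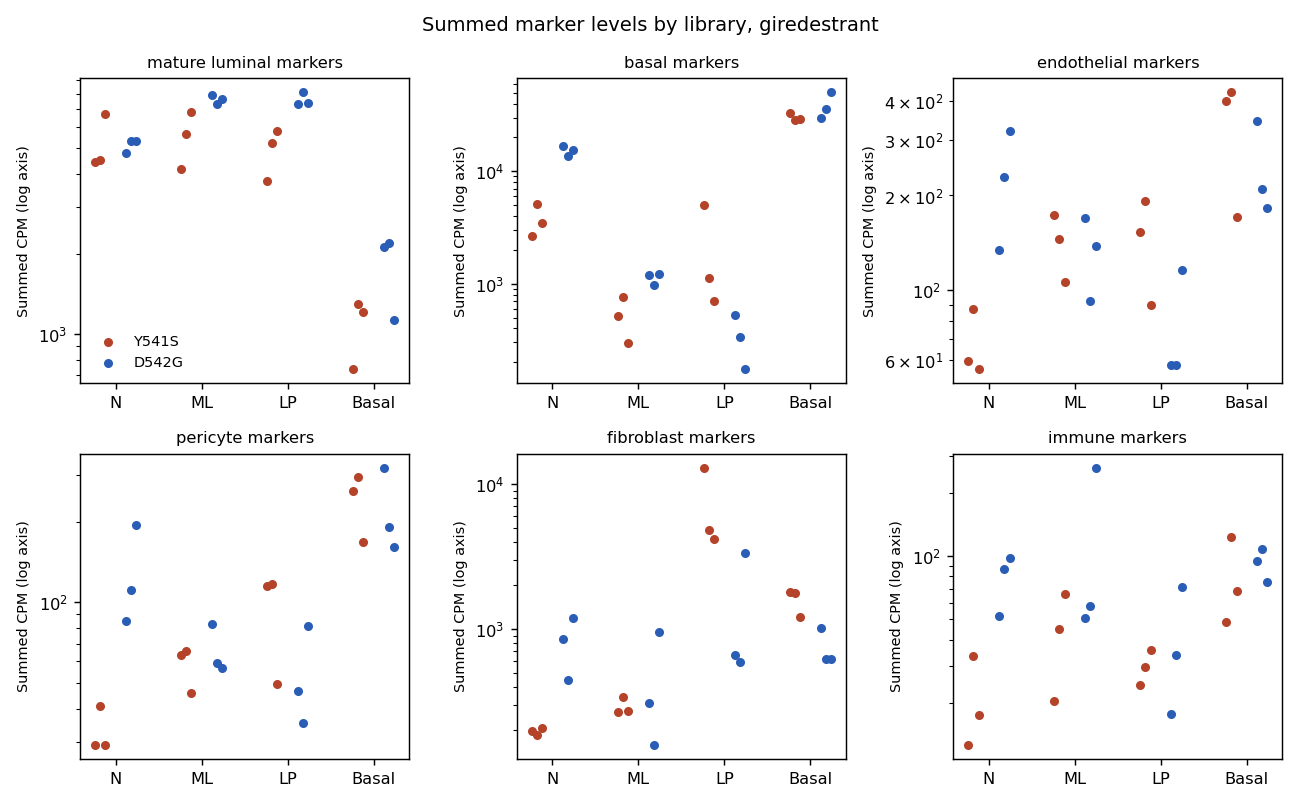
Summed levels of 6 marker lists in CPM on log axes, for each of the 24 libraries of mutant glands after giredestrant, by sorted population, Y541S in red left of D542G in blue. In N, basal, endothelial, pericyte, fibroblast and immune sums are lower in every Y541S library than in any D542G library, and mature luminal sums overlap; fibroblast sums are highest in Y541S LP (4141 to 12880 CPM).

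Class II antigen presentation genes were among the falls. Of 13 tested MHC and antigen presentation genes, 4 fell and none rose (30.8%), with a median of -0.48 that was -0.83 without Y541S N 3. H2-Ab1 had 11.3, 26.2 and 21.6 CPM in Y541S N cells, against 63.9, 76.3 and 86.9 CPM in D542G N cells, without overlap (log2 difference -1.94 ± 0.41, adjusted p = 0.00673). H2-Aa (log2 -1.79, adjusted p = 0.0447) and H2-Eb1 (log2 -1.45, adjusted p = 0.0425), the other class II chains tested, were lower as well. So was Cd74, the invariant chain, which was already counted among the immune markers. The class I genes H2-K1 and H2-D1 had log2 differences of -0.29 ± 0.18 and -0.53 ± 0.18 and did not pass. For H2-Ab1 the call ended without Y541S N 1, for H2-Aa without Y541S N 1 or 3 or any 1 of the D542G libraries or with length offsets and for H2-Eb1 without any single N library or with length offsets (adjusted p up to 0.188 over all other fits). No member was called without Y541S N 1, 2 were called without D542G N 1, 1 without D542G N 2 or D542G N 3, and 6 without Y541S N 3 or with DESeq2.

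Growth factor axes held rises and falls. Of 11 genes of the insulin-like growth factor axis, 2 rose and 3 fell (45.5%), with a median of 0.28 that turned to -0.34 without Y541S N 1 and ran from 0.13 to 0.54 without 1 of the other N libraries. Irs1 and Igf2r, a receptor that clears Igf2 (log2 1.25, adjusted p = 0.00436), were the rises. Igfbp3, Igfbp6 (log2 -2.18, adjusted p = 0.023) and the growth factor Igf1 (log2 -2.31, adjusted p = 0.0176) were the falls. For Igfbp6 the call ended without Y541S N 1 or 3 or D542G N 2 or 3 and for Igf1 without Y541S N 1 or D542G N 3 (adjusted p up to 0.107 over all other fits). The list held 1 rise and no fall without Y541S N 1, 1 rise and 3 falls without D542G N 1, 1 rise and 2 falls without D542G N 2, and 1 rise and 1 fall without D542G N 3.

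Of 16 TGF-beta and activin pathway genes, 1 rose and 2 fell (18.8%), with a median of -0.26 that was -0.53 without Y541S N 2 and -0.46 with length offsets. Tgfb3, a ligand, was the rise (log2 1.04, adjusted p = 0.0303), and Fst and Smad6, an inhibitor of BMP signalling (log2 -1.14, adjusted p = 0.0142), were the falls. Of 12 EGF receptor family genes and ligands, Erbb3, a neuregulin receptor, rose (log2 0.95, adjusted p = 0.0392), and Hbegf, a ligand, fell (log2 -0.95, adjusted p = 0.0209). Of 13 Notch pathway genes, Notch1 rose (log2 1.27, adjusted p = 0.0419), and Dll4, a ligand known from endothelium, fell (log2 -1.54, adjusted p = 0.0387). Of 17 Wnt pathway genes, Wnt10a was the 1 that passed (5.88%, against 9.12% of all genes). The shares called were 16.7% on the EGF receptor list and 15.4% on the Notch list. For Tgfb3 the call ended without Y541S N 1 or any 1 of the D542G libraries, for Smad6 without Y541S N 1 or D542G N 3 and for Erbb3 without any single N library or with length offsets. For Hbegf the call ended without Y541S N 1 or 3 or D542G N 1, for Notch1 without Y541S N 1 or 2 or any 1 of the D542G libraries or with length offsets and for Dll4 without any 1 of the Y541S libraries or D542G N 2 or 3 (adjusted p up to 0.28 over all other fits).

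Matrix, mesenchymal and repressor genes were called singly. Of 16 collagen and matrix genes, Fn1 and Spock1, a proteoglycan, rose (12.5%) while the median was -0.62, with -0.41 without Y541S N 1 and -0.40 without Y541S N 3. Spock1 had 179, 101 and 0.695 CPM in Y541S N cells, against 3.53, 2.12 and 2.56 CPM in D542G N cells, with Y541S N 3 below every D542G library (log2 difference 5.09 ± 1.39, adjusted p = 0.0278). Of 12 genes of epithelial to mesenchymal transition, Fn1 rose, and Vim and the repressor Snai1 (log2 -1.19, adjusted p = 0.0333) fell. Of 9 Sox and Id factors, Id3 fell (log2 -1.16, adjusted p = 0.0241). The shares called were 25% on the transition list and 11.1% on the Sox and Id list, against 9.12% of all genes. For Spock1 the call ended without Y541S N 1 or any 1 of the D542G libraries, for Snai1 without Y541S N 2 or 3 or D542G N 2 or 3 or with length offsets and for Id3 without any 1 of the Y541S libraries or D542G N 1 or 3 (adjusted p up to 0.113 over all other fits).

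Metabolic and stress lists held single calls, and their shares lay near the 9.12% of all genes. The shares were 11.8% for cholesterol synthesis, 7.69% for hypoxia and glycolysis and 8.33% for unfolded protein response genes. Of 17 tested cholesterol synthesis genes, Dhcr7, the last enzyme of the pathway, rose (log2 0.96, adjusted p = 0.0266), and Hsd17b7, a sterol reductase, fell (log2 -0.83, adjusted p = 0.0362). Of 13 hypoxia and glycolysis genes, Pfkfb3, which raises an activator of glycolysis, fell (log2 -0.97, adjusted p = 0.0272). Of 12 unfolded protein response genes, Hsp90b1, a chaperone of the endoplasmic reticulum, rose (log2 0.74, adjusted p = 0.0425). For Dhcr7 the call ended without Y541S N 3 or any 1 of the D542G libraries, for Hsd17b7 and Pfkfb3 without Y541S N 1 or 2 or D542G N 2 or 3 and for Hsp90b1 without Y541S N 1 or 2 or any 1 of the D542G libraries (adjusted p up to 0.224 over all other fits).

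No gene of the cell cycle lists passed in N cells. The 18 mitosis genes all had log2 differences above 0, as did 9612 of all 18247 genes tested. The mitosis genes had a median of 0.94, and the 14 tested DNA replication genes had a median of 0.42. Without Y541S N 3 these medians were 0.18 and -0.20, and 0.65 for DNA replication without Y541S N 2, where 1 of its genes passed. Top2a, a topoisomerase of dividing cells, had 86, 82.6 and 214 CPM in Y541S and 74.2, 47.2 and 42.1 CPM in D542G, without overlap (log2 difference 1.24 ± 0.43, adjusted p = 0.0742), and Cdk1, the mitotic kinase, had a log2 difference of 0.81 ± 0.45 (adjusted p = 0.283). In the same fit 12 of the 18 mitosis genes were higher in Y541S LP (7.67% of all genes were) and 11 in Y541S Basal cells (2.44% of all genes were). No member of the lists of 12 G1 cyclins and inhibitors, 15 interferon response genes and 9 mitochondrial transcripts passed. Their medians were 0.18, 0.28 and -0.46. Without Y541S N 3 the median of the G1 list was -0.04 and that of the interferon list 0.041, with 1 interferon gene lower, and without D542G N 1 that of the interferon list was 0.17. The mitochondrial median was -0.17 without D542G N 1 and -0.80 without D542G N 2.

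**Figure D4:**
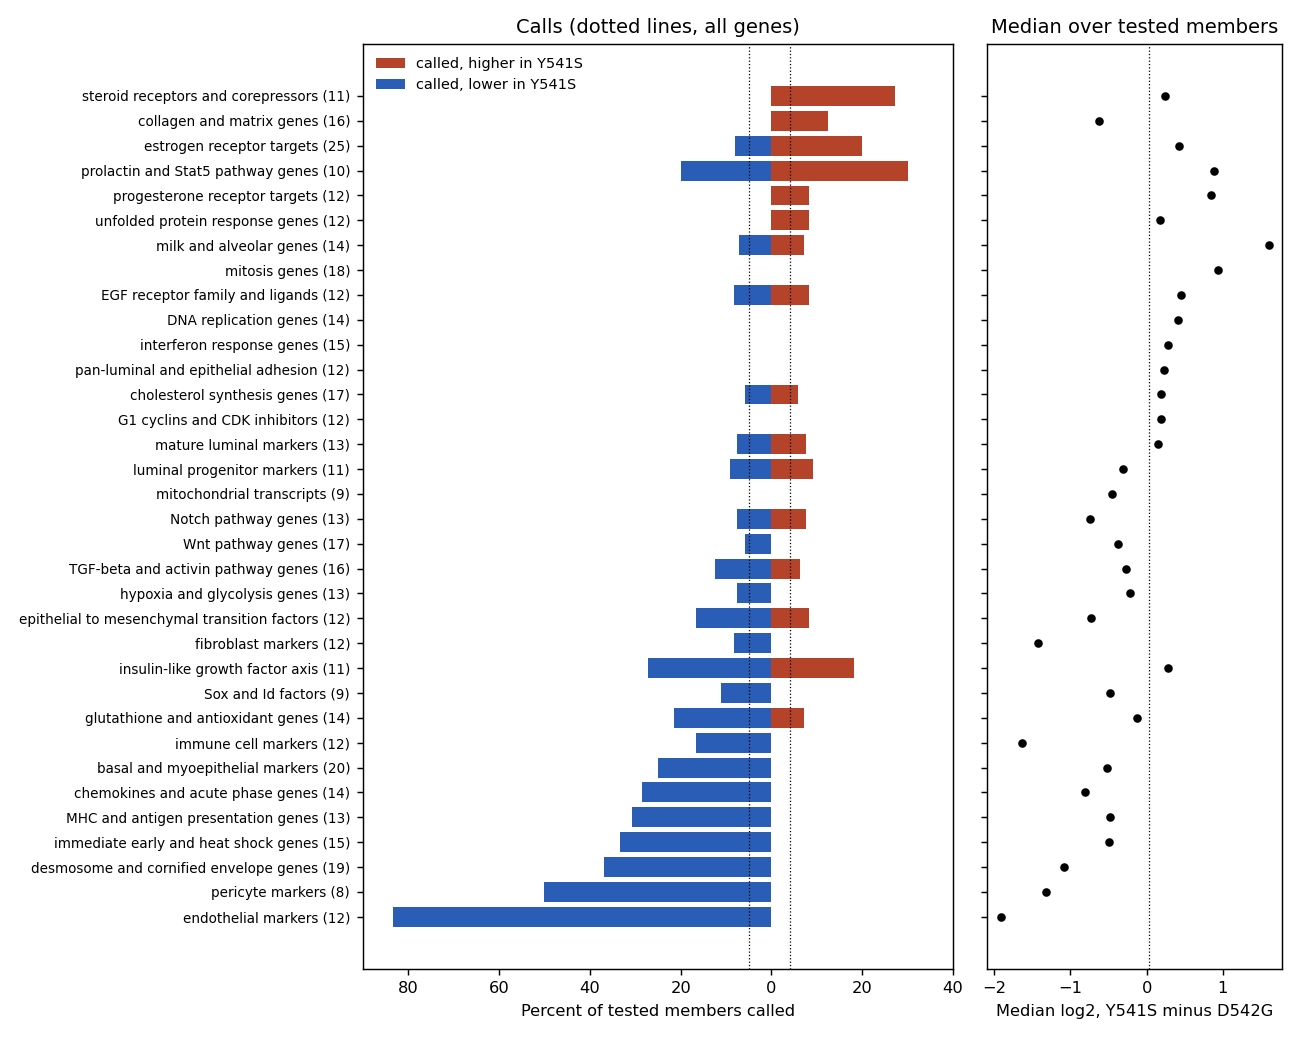
For each list of genes, with the number of tested members in brackets, the left panel shows the percent of members called higher (red, to the right) and lower (blue, to the left) in Y541S N cells, and the right panel the median log2 difference of Y541S minus D542G. Dotted lines give all genes (4.13% higher, 5% lower, median 0.03), and all values are with every library in. Endothelial (10 of 12), pericyte (4 of 8) and desmosome and cornified envelope genes (7 of 19) hold the largest shares of falls.

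The same genotype difference was estimated in ML, LP and Basal cells in 1 fit over 24 libraries. Y541S minus D542G differences passed for 6.42% of genes in ML, 12% in LP and 3.84% in Basal cells. Of the 1665 genes called in N, 1493 (89.7%) had the same sign in ML. The share with the same sign over all genes tested was not computed. Those called with the same sign in ML numbered 485, which was 29.1% of the N calls and 41.4% of the ML calls. For LP the number was 385 (23.1% of the N calls and 17.6% of the LP calls), and for Basal cells 195 (11.7% and 27.9%). A further 57 N calls were called in LP with the opposite sign, and 964 (57.9%) were called in none of the other populations. The share of all genes tested that were called in none of those populations was not computed either. Whether N and other populations shared animals is not given, so these counts are descriptions.

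The test of the difference between populations gave 592 calls against LP and none against ML. For N minus ML 1471 genes had an unadjusted p under 0.05 (8.06%), and 176 genes passed in DESeq2, 21 in a fit of all 51 libraries and 26 with a replicate block within genotype. For N minus LP 592 genes passed (3.24%), for N minus Basal 97 (0.532%) and for N minus the mean of the other 3 populations 370 (2.03%), of which 312 were lower in N than in that mean. Against the mean of ML and Basal alone 48 genes passed. For N minus the mean of 3 populations 50 genes passed without Y541S N 1, 223 without D542G N 2 and 91 without D542G N 3, and for N minus LP 208, 384 and 265. For N minus Basal 7 genes passed without Y541S N 1, 196 without Y541S N 3, and 60, 23 and 20 without D542G N 1, 2 and 3, and for N minus ML 16 without Y541S N 3. Same-numbered libraries of 1 genotype deviated together in Y541S (correlations of 0.20 to 0.43), which this fit does not use. With the block within genotype 1152 genes passed for N minus LP, 361 for N minus Basal and 789 for N minus the mean.

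Pgr rose in ML as in N. Its log2 differences were 1.83 ± 0.29 in ML (adjusted p = 0.00267), 0.28 ± 0.28 in LP and 0.62 ± 0.28 in Basal cells, against 1.95 ± 0.29 in N, and N minus the mean was 1.04 ± 0.33 (adjusted p = 0.107). Podxl also rose in ML (1.55 ± 0.40, adjusted p = 0.0283), N minus ML did not pass for it (1.34 ± 0.56, adjusted p = 0.514), and N minus the mean passed for it (1.98 ± 0.46, adjusted p = 0.0278). Zbtb16 was the other named rise for which it passed (1.99 ± 0.49, adjusted p = 0.038). For Podxl the call of N minus the mean ended without Y541S N 1 or any 1 of the D542G libraries or with LP left out of the mean and for Zbtb16 without Y541S N 1 or 2 or D542G N 2 or 3 or with LP left out of the mean (adjusted p up to 0.179 over all other fits). Krt10 and Ltf fell in ML too, with -3.92 ± 0.86 (adjusted p = 0.0151) and -3.67 ± 0.69 (adjusted p = 0.00636), and Ltf also in LP (-2.28 ± 0.65) and Basal cells (-2.40 ± 0.65). Ier2 and Krt17 had -1.08 ± 0.19 and -2.37 ± 0.49 in ML, near their N values of -0.92 and -2.02.

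Krt5 moved in opposite directions in N and LP. Its difference was -2.96 ± 0.56 in N, -2.49 ± 0.56 in ML and 2.33 ± 0.55 in LP (adjusted p in LP = 0.0115). N minus LP was -5.29 ± 0.79 (adjusted p = 0.00197), and N minus the mean was -2.69 ± 0.62 (adjusted p = 0.0278). Of the 20 basal markers 14 were higher in Y541S LP (70%, against 7.67% of all genes), and summed basal markers in LP were 5047, 1131 and 708 CPM in Y541S and 529, 335 and 173 CPM in D542G. A difference between N and a mean that includes LP therefore holds the LP difference as well. For Krt5 the call of N minus the mean ended without Y541S N 1 or 2 or any 1 of the D542G libraries or with LP left out of the mean (adjusted p up to 0.443 over all other fits).

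The 8 named genes with the largest differences between N and that mean were all lower in Y541S N than in D542G N. S1pr3, a sphingosine phosphate receptor, had 4.42, 12 and 12 CPM in Y541S N cells, against 95.9, 81.8 and 114 CPM in D542G N cells, without overlap (log2 difference -3.35 ± 0.45, adjusted p = 0.000455). N minus the mean was -4.04 ± 0.51 (adjusted p = 0.000884), with 2.17 ± 0.44 in LP and -0.08 ± 0.42 in ML. Other genes overlap 71% of the span of S1pr3 at chr13:51408639-51422797, so its level is uncertain. Ch25h, which makes 25-hydroxycholesterol, had 1.06, 1.31 and 0.858 CPM in Y541S and 6.65, 13.8 and 9.93 CPM in D542G, without overlap (log2 difference -3.23 ± 0.48, adjusted p = 0.000776). N minus the mean was -3.91 ± 0.54 (adjusted p = 0.00222). Ndufa4l2, a mitochondrial protein known from hypoxia and pericytes, had 0.706, 1.08 and 1.43 CPM in Y541S and 11.2, 20.3 and 14.2 CPM in D542G, without overlap (log2 difference -3.81 ± 0.61, adjusted p = 0.00113). Its difference was -0.78 in ML, -0.38 in LP and -0.04 in Basal cells.

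Of the others, Matn2, a matrix adaptor (log2 difference -1.69 ± 0.48, adjusted p = 0.0343), Thbs2, thrombospondin 2 (log2 difference -1.97 ± 0.59, adjusted p = 0.0398), and Edil3, an integrin ligand (log2 difference -2.27 ± 0.70, adjusted p = 0.0478), had differences above 0 in LP, of 3.27, 1.95 and 2.18. Chit1 and Olr1 had differences in LP of -0.76 and 0.54. For Matn2 the call ended without any 1 of the Y541S libraries or D542G N 1 or 3, for Thbs2 without any 1 of the Y541S libraries or D542G N 2 or 3 and for Edil3 without any single N library (adjusted p up to 0.215 over all other fits). Matn2, S1pr3 and Ch25h kept their calls for N minus the mean in all 16 other fits of that contrast. For Ndufa4l2 the call of N minus the mean ended without Y541S N 1, for Thbs2 without Y541S N 1 or with LP left out of the mean and for Edil3 without Y541S N 1 or D542G N 1 or 3 or with LP left out of the mean. For Olr1 the call of N minus the mean ended without Y541S N 1 or 3 or D542G N 1 or 3 or with LP left out of the mean and for Chit1 without any single N library or with LP left out of the mean (adjusted p up to 0.172 over all other fits). Olr1 and Chit1 also lost that call with a block for replicate number, and Chit1 with N libraries thinned to equal totals.

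Il6, Cldn5, Rgs5 and Gstm1 also passed for N minus the mean. Il6 had -2.19 ± 0.55 (adjusted p = 0.044), with -0.43 in ML, -0.34 in LP and -0.83 in Basal cells. Cldn5 had -1.83 ± 0.44 (adjusted p = 0.0345) and Rgs5 -2.18 ± 0.46 (adjusted p = 0.0171). Gstm1 had -1.27 ± 0.29 (adjusted p = 0.0233) and was also lower in ML (-0.89 ± 0.25, adjusted p = 0.0382). For Gstm1 and Rgs5 the call of N minus the mean ended without Y541S N 1 or D542G N 3 or with LP left out of the mean, for Cldn5 without Y541S N 1 or 3 or D542G N 2 or 3 or with LP left out of the mean and for Il6 without Y541S N 1 or 2 or any 1 of the D542G libraries or with LP left out of the mean (adjusted p up to 0.145 over all other fits). The fit of all 51 libraries ended that call for Cldn5 as well.

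**Figure D5:**
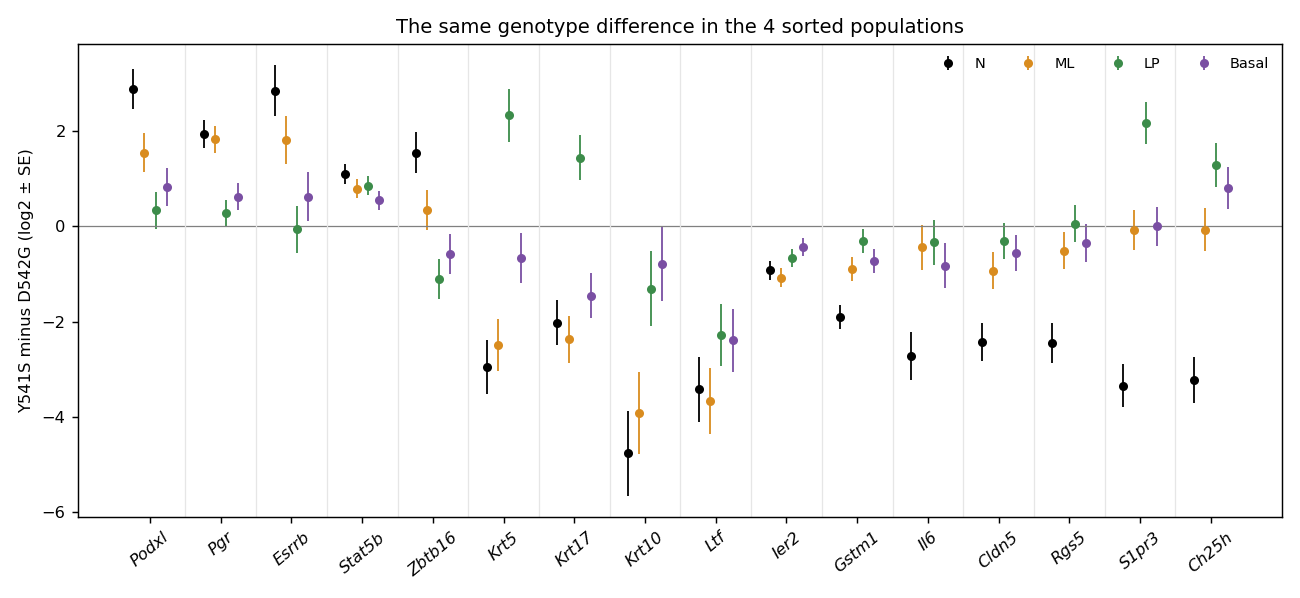
Log2 differences of Y541S minus D542G with standard errors for 16 genes in N (black), ML (orange), LP (green) and Basal (purple) cells, from 1 fit over 24 libraries. Pgr, Krt10, Ltf and Ier2 lie near each other in N and ML, Krt5 and Krt17 lie above 0 only in LP, and Il6, Cldn5, Rgs5, S1pr3 and Ch25h lie furthest below 0 in N.

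Genes near the mutated locus did not stand out by number. Of 190 genes within 10 Mb of Esr1 on chromosome 10, 63 were tested, of which 2 rose and 5 fell (11.1%, against 9.12% of all genes). Of 100 genes that were higher in N than in the 3 other populations, chosen on these same mutant libraries and so not independent of them, 2 rose and 11 fell in Y541S N (13%). Among them were Aldh3a1, an aldehyde dehydrogenase (log2 -2.26, adjusted p = 0.0138), Fbp1, an enzyme of gluconeogenesis (log2 -2.01, adjusted p = 0.00497), Hcar2, a receptor for hydroxycarboxylic acids (log2 -2.04, adjusted p = 0.000892), and Olr1, all lower, and Pla2g4c, which was higher. The 11 falls were 3 without Y541S N 1, 4 without Y541S N 2 or D542G N 3, and 5 without D542G N 1 or D542G N 2.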

How the data were processed

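RNA was sequenced from cells sorted out of mouse mammary glands, with libraries made from cDNA by a Nextera kit, per the labels' protocols. The deposited tables hold raw counts per gene (whole numbers, 1 table per library, 52636 genes), and the submitters' processing notes name the build GRCm38. The sources used here give no aligner, counter, use of strand or treatment of reads shared by related genes. In 85.4% of genes the width in the deposited tables equals the span with introns. Gene names were matched by ID to GENCODE M21 (52489 genes, 80 symbols shared by more than 1 gene), and 63 of the called genes, which other genes overlap over at least 50% of their span, are uncertain. The source name reads mature luminal for every library, so groups were taken from titles.

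Genes were filtered with filterByExpr, scaled by TMM and tested with edgeR 4.0.16 (R 4.3.3, quasi-likelihood F test, Benjamini-Hochberg adjustment over all genes tested) in 1 fit of the 24 libraries of Y541S and D542G N, ML, LP and Basal cells after giredestrant, with 16 residual degrees of freedom. Totals ran from 21397339 to 60128473 counts, and replicate libraries differed by more than sampling noise. Errors after ± are standard errors. Differences between populations were tested as interaction contrasts in the same fit. The procedure was tested on simulated data.

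Named genes were Esr1, the 14 largest rises and 14 largest falls among called genes without overlap of libraries and with 10 CPM or more where higher, the 4 most changed called members of each list, and the 8 genes with the largest called difference between N and the mean of the other populations. Predicted genes, pseudogenes and ribosomal protein, histone, immunoglobulin and T cell receptor genes were left out of the rises, the falls and those 8. Other members complete a count or are given as values, chosen after they were seen. The genes and lists were chosen with earlier results of these data known. Replicate numbers did not pair Y541S with D542G N libraries (correlations of same-numbered deviations of -0.03, -0.03 and 0.04). Alternatives were DESeq2 1.42.0, other samples, scalings, filters and omitted libraries. Promoters are from RefSeq on GRCm38.p6, and figures were drawn with matplotlib 3.10.9 in Python 3.11.15.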

Additional observations from a re-analysis of the deposited data

Results flagged for a closer look

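For 24 named genes the genotype difference in N cells differed from the mean of the differences in ML, LP and Basal cells by the test of that difference in the fit of 24 libraries (edgeR, adjusted p under 0.05), and 22 of them were lower in N than in that mean. The values here are N minus that mean on the log2 scale. Podxl (1.98) and Zbtb16 (1.99) were the 2 above 0.

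Among secreted and matrix genes the values were -3.69 for Matn2, -3.52 for Thbs2, -3.66 for Edil3, -3.10 for Fst, -2.56 for Cxcl12, -2.19 for Il6 and -2.07 for Igfbp3. The endothelial genes Esam and Cldn5 had -2.19 and -1.83, and the pericyte genes Rgs5 and Cspg4 had -2.18 and -1.93. S1pr3 had -4.04, Ch25h -3.91, Ndufa4l2 -3.41, Olr1 -3.81, Chit1 -4.05 and Pkib -2.91. Krt5 had -2.69, and the transcription factors Pou2f3 and Egr2 had -3.33 ± 0.66 and -1.66. Gstm1 and Hsd17b7 had -1.27 and -1.40.

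Of these 24 calls, 3 held in all 16 other fits of the contrast (Matn2, Ch25h and S1pr3), and Ndufa4l2 lost its call without Y541S N 1 alone. With LP left out of the mean, an alternative chosen after seeing the data, 20 of the 24 did not pass.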

How the results depend on the processing

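Counts of called genes changed with the libraries in the fit and with the tool. Against 753 higher and 912 lower genes, a fit of all 51 libraries called 1180 genes higher and DESeq2 called 1410 lower, and with 1 N library left out in turn the counts ran from 179 to 851 higher and from 305 to 830 lower. Genes passing for N minus ML (0) numbered 21 with 51 libraries, 176 with DESeq2, 0 to 16 with 1 library left out and 26 with a replicate block within genotype. For N minus LP (592) these numbers were 1025, 1284, 208 to 629 and 1152, for N minus Basal (97) 287, 552, 7 to 196 and 361, and for N minus the mean (370) 672, 935, 50 to 393 and 789, with 48 against the mean of ML and Basal alone. The replicate block over both genotypes called 1005 genes higher and 1091 lower, although the numbers do not pair the N libraries. The 6 N libraries alone called 522 and 842, and the other scaling, filters, thinning to equal totals and length offsets called 597 to 827 higher and 803 to 1011 lower. Higher genes were 45.2% of the calls, 38.3% in the fit of the 6 N libraries, and 37.0, 34.7 and 34.1% without Y541S N 1, D542G N 3 and D542G N 1. Esr1 ran from -0.16 (without Y541S N 2, adjusted p = 0.872) to 0.28 with 1 library left out and had -0.078 with length offsets (adjusted p = 0.924), and the cause was not tested. Of the 103 named calls, DESeq2 kept 103, the 6 N libraries 80 and length offsets 92. Thinning, length offsets, the block within genotype and the mean without LP were chosen after seeing the data. With 3 libraries per genotype and population, small differences such as that of Areg could not be told from the spread. In the main fit that spread was taken over N, ML, LP and Basal libraries and not from N alone. The depth gap between the genotypes was addressed by thinning alone.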

Other observations

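Several genes of the circadian clock were looked at after their values were seen, with no list behind them. Dbp, a transcription factor driven directly by the clock, had 1.52, 2.66 and 4.05 CPM in Y541S N cells, against 11.3, 21.3 and 16.8 CPM in D542G N cells, without overlap (log2 difference -2.57 ± 0.33, adjusted p = 0.00027). It was also lower in Y541S in ML (-2.28 ± 0.32, adjusted p = 0.00118) and in LP (-2.11 ± 0.32, adjusted p = 0.00153). Nr1d1, the repressor Rev-erb alpha (log2 -1.06, adjusted p = 0.00327), Tef, a relative of Dbp (log2 -0.85, adjusted p = 0.021), and Cry2, a cryptochrome (log2 -0.73, adjusted p = 0.0257), were lower as well, and Clock, the activator, was higher (log2 1.03, adjusted p = 0.00351). Per1 and Per2, the period genes, did not pass (log2 -0.52, adjusted p = 0.194 and log2 0.12, adjusted p = 0.83). The time of day at which glands were taken is not given in the labels.

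Other genes chosen after their values were seen had small adjusted p-values and no place in the lists. Rab20, a small GTPase of endosomes, had 52.7, 71.2 and 57.4 CPM in Y541S N cells, against 173, 148 and 188 CPM in D542G N cells (log2 difference -1.49 ± 0.15, adjusted p = 4.80e-05). Pde4b, a phosphodiesterase that breaks down cyclic AMP, had 511, 678 and 621 CPM in Y541S and 1929, 1654 and 1988 CPM in D542G (log2 difference -1.62 ± 0.20, adjusted p = 0.000249), and Sulf2, an extracellular sulfatase, had 408, 356 and 296 CPM in Y541S and 108, 138 and 112 CPM in D542G (log2 difference 1.57 ± 0.21, adjusted p = 0.000385). None of the 3 overlapped between genotypes. Gpx3, a secreted peroxidase, had 38730.2, 19984 and 5811 CPM in Y541S and 4089.8, 5855 and 4276 CPM in D542G, with Y541S N 3 inside the D542G range, and did not pass (log2 difference 2.18 ± 0.71, adjusted p = 0.060).

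In all 4 sorted populations 105 of the 18247 genes tested were called with the same sign. The shares of all genes called were 9.12% in N, 6.42% in ML, 12% in LP and 3.84% in Basal cells.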
